A study of Mus musculus with 2 samples.

Results

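The genes of the TEAD transcription factors, of their coactivators YAP (Yap1) and TAZ (Wwtr1), of the LATS kinases that restrain them, and of the TEAD-binding proteins Vgll3 and Vgll4 were examined for GATA4 binding in mouse myoblasts. The 10 genes were taken by name, out of 21887 protein coding genes on the chromosomes that held peaks, and their peaks were those centred in the gene or within 50 kb of it. This gave 35 of the 17539 peaks in the deposited list. No peak was counted for more than 1 of the 10 genes.

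The peaks came from chromatin immunoprecipitation sequencing (ChIP-seq), in which DNA bound by a protein is recovered with an antibody and sequenced. The GATA4 ChIP library was made with a mixture of 3 antibodies against GATA4, a zinc finger factor that recognises GATA sequences. The IgG ChIP library was made with control immunoglobulin. There was 1 library each for GATA4 and IgG, with no replicate. Both used cultured myoblasts, the dividing precursors of muscle fibres, which had been grown out of satellite cells in medium with 20% fetal serum and 20 ng/ml basic fibroblast growth factor. Both came from the stock Myf5tm1Pas/J, which carries a targeted Myf5 allele. The zygosity and the number of animals pooled are not given in the labels. Only a list of GATA4 peaks was analysed here, so none of the peaks can be compared with IgG and the depth is unknown. A peak list holds no expression, so the labelled cell type could be checked only by where peaks lay. All 7 myoblast marker genes examined, Myod1, Myf5, Pax7, Des, Cdh15, Itga7 and Megf10, had a peak in the same kind of window. So did 1 of 4 fibro-adipogenic, 3 of 4 endothelial and 1 of 4 immune marker genes. Since 56.8% of all protein coding genes had a peak in such a window, lists this short do not tell the cell types apart.

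TEAD proteins bind DNA but activate genes mainly through the coactivators YAP and TAZ, which have no DNA-binding domain of their own. When the Hippo kinase cascade is active, LATS1 and LATS2 phosphorylate YAP and TAZ, and these are then held in the cytoplasm or degraded. Vestigial-like proteins such as VGLL3 and VGLL4 bind the same TEAD factors, and VGLL4 competes with YAP for them. In skeletal muscle, YAP is known for sustaining the proliferation of satellite cell-derived myoblasts, and TEAD factors bind the MCAT element found in many muscle gene promoters.

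The GATA4 peak at the Yap1 promoter was the 1 case, among the 8 genes with an annotated promoter window, in which a peak overlapped that window. The windows run from 250 bases before to 50 bases after an annotated transcription start (RefSeq, GRCm38.p6). Tead1 and Tead4 had no entry. Among all 32851 windows, 6.1% overlapped a peak by at least 1 base. The stretch below is the part of the Yap1 window that lies in the peak and outside the gene, chr9:8004639-8004772 on the minus strand, and it is shown because it carries this overlap. It is written 5′ to 3′, and the capitals mark the MCAT core GGAATG.
Yap1: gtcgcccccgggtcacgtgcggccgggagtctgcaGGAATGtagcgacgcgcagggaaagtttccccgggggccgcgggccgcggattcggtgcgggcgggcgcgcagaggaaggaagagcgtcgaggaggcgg

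The Yap1 window held the TEAD core 1 time and no GATA word, taken as GATA with A or T before it and A or G after it, on either strand. Among promoter windows that a peak overlapped, 23.8% held such a GATA word, against 30.2% of windows with no peak. The absence of a word says only that these letters are not in this window, and the peak extended beyond it.

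The MCAT core, GGAATG on one strand or CATTCC on the other, was also present in promoter windows of Tead3, Wwtr1, Lats2, Vgll3 and Vgll4. In all, 6 of the 8 genes had it in at least 1 window, and 16.6% of the 27025 genes in the promoter table did. The motifs were chosen with the promoter sequences in view, so these shares are a description only. Among all promoter windows that a peak overlapped, 13.6% held the MCAT core, against 14.7% of windows with no peak. Counted by window, 8 of the 12 windows of these genes held it, and several of those windows overlap each other. A GATA word was present for Wwtr1 and Vgll3, 2 of the 8 genes, as for 33% of all genes. Stretches of 30 bases around the first match show the letters in each gene, with the MCAT core and any GATA word in capitals. No peak overlapped these windows. They are shown to set the Yap1 promoter beside those of its partners.
Tead3, chr17:28350970-28350999, minus strand: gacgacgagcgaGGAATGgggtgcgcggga
Wwtr1, chr3:57576029-57576058, minus strand: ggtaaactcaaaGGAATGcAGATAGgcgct
Lats2, chr14:57746102-57746131, minus strand: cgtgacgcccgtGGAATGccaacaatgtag
Vgll3, chr16:65815114-65815143, plus strand: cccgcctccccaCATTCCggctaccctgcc
Vgll3, chr16:65815066-65815095, plus strand: atggaacttttcTGATAAactgctcctgag
Vgll4, chr6:114969268-114969297, minus strand: cgagtggggtggGGAATGctgagaaatgcc

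In the Wwtr1 stretch the TEAD core and the GATA word AGATAG are separated by a single base. The nearest GATA4 peak of the whole list to an annotated Wwtr1 start was 74.0 kb away. A match of letters is a description of the sequence and not a binding site.

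Of the 10 genes, 9 had at least 1 GATA4 peak in the gene or within 50 kb, and Lats2 had none. The same was true of 56.8% of all protein coding genes. The 10 genes were longer than most, with a median span of 64.6 kb against 17.2 kb over protein coding genes, and longer windows hold more peaks. Among protein coding genes with windows of similar length (within a factor of 1.25) to each member's, the share with a peak ran from 52.5% for genes like Tead2 to 73.3% for genes like Wwtr1 and Tead1. With 10 kb flanks, 8 of the 10 genes had a peak, and 33.3% of protein coding genes did. With 100 kb flanks these were 9 of 10 and 69.9%. Counting only peaks above the list's median score, 7 of the 10 had one within 50 kb, and 36.8% of protein coding genes did. The shares for these other settings were not matched for length. The median was 2 peaks per gene over the 10 genes and 1 over all protein coding genes. Per length of window, the medians were 15.8 and 7.08 peaks per Mb.

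The peaks were divided unevenly. Tead1 had 11 peaks, Vgll4 had 7 and Vgll3 had 5, which together made 23 of the 35, or 65.7%. Wwtr1 had 4, Tead3, Yap1 and Lats1 had 2 each, and Tead2 and Tead4 had 1 each. Peaks were centred inside 7 of the 10 genes, and 21% of protein coding genes had a peak inside them. These 7 were Tead1, Tead4, Yap1, Wwtr1, Lats1, Vgll3 and Vgll4. The 21% was not matched for length, and the median span was 64.6 kb for the 10 genes and 17.2 kb over protein coding genes. Of the 35 peaks, 25 lay inside the gene, 5 lay inside a neighbouring protein coding gene and 5 lay in no protein coding gene. The annotation used here gives no exons, so peaks inside a gene could not be placed in exons, introns or untranslated regions.

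**Figure D1:**
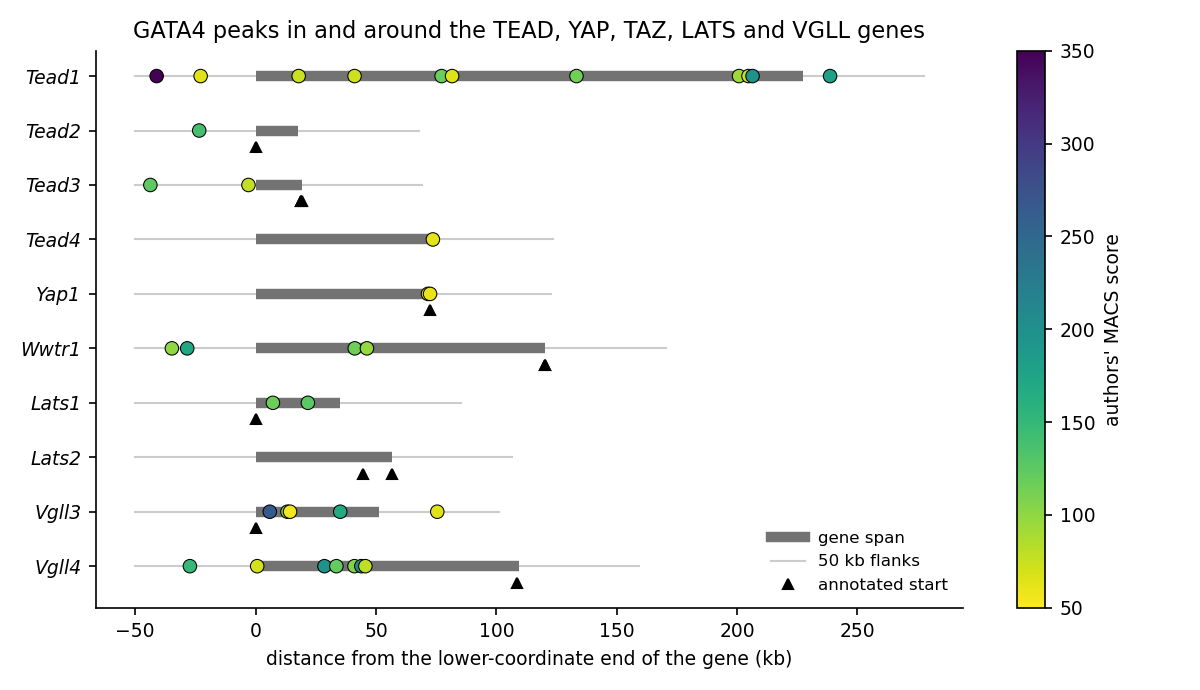
Each row is 1 gene, with its span as a thick bar, the 50 kb flanks as a thin line and the distance in kb from the lower-coordinate end on the x axis. Circles are GATA4 peak centres coloured by the authors' MACS score, and triangles mark annotated transcription starts, which the promoter table does not give for Tead1 and Tead4. Tead1 and Vgll4 carry 11 and 7 peaks, and Lats2 carries none.

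Only for Tead1, Vgll3 and Vgll4 did the counting interval of peak density lie above the density of the gene's own chromosome. These were 3 of the 10, and 7.92% of protein coding genes met the same criterion, a share not matched for length. Tead1 had 33.6 peaks per Mb of window (exact 95% Poisson interval 16.8 to 60.1), against 6.28 per Mb over chromosome 7. Vgll4 had 33.4 per Mb (13.4 to 68.9), against 6.38 per Mb over chromosome 6. Vgll3 had 33.1 per Mb (10.7 to 77.2), against 7.51 per Mb over chromosome 16. Intervals cover counting error only, and neighbouring peaks need not be independent. For Vgll3 the call rested on narrow peaks. Without its 2 peaks narrower than the lower quartile of width, which are also its 2 peaks of recurring score, it had 3 peaks or 19.8 per Mb (4.09 to 58.0), and the interval took in the 5.39 per Mb of chromosome 16 with narrow peaks left out and the 5.47 per Mb with recurring scores left out. The calls of Tead1 and Vgll4 held under both choices. These 3 densities were higher than those of 95.1%, 95.1% and 94.9% of protein coding genes, so about 1 gene in 20 was as dense. Among genes with windows of similar length, 96.8% had fewer peaks than Tead1, 95.7% fewer than Vgll4 and 94.9% fewer than Vgll3.

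Densities at the other 7 genes were within counting error of their chromosomes. Wwtr1 had 18.2 peaks per Mb (4.95 to 46.5) and chromosome 3 had 7.09. Tead3 had 16.8 (2.03 to 60.6) and chromosome 17 had 7.27. Lats1 had 14.8 (1.79 to 53.4), but its chromosome 10 was the densest of all, with 12.8 peaks per Mb. Yap1 had 11.6 (1.40 to 41.8) and chromosome 9 had 8.20, Tead2 had 8.50 (0.215 to 47.3) and chromosome 7 had 6.28, and Tead4 had 5.76 (0.146 to 32.1) and chromosome 6 had 6.38. The paralogous pairs, Yap1 with Wwtr1 and Lats1 with Lats2, had intervals that overlapped widely.

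**Figure D2:**
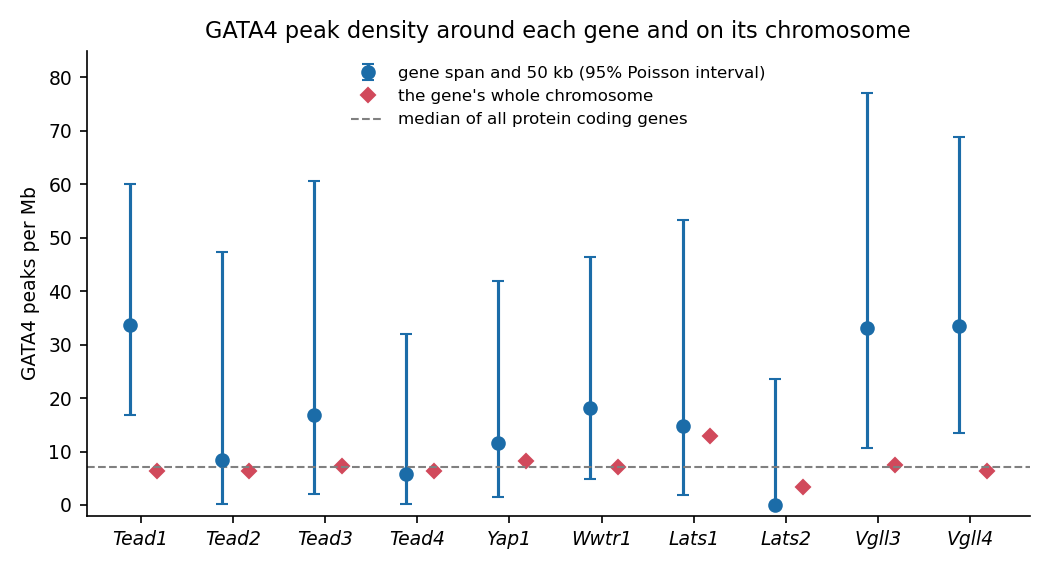
Circles give GATA4 peaks per Mb in each gene and its 50 kb flanks with exact 95% Poisson intervals, diamonds give the density of the whole chromosome, and the dashed line is the median of 7.08 per Mb over protein coding genes. The intervals of Tead1, Vgll3 and Vgll4 lie above their diamonds (for Vgll3 not once its 2 narrow peaks are left out), and the other 7 include theirs.

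Tead1 encodes a TEAD factor long studied in cardiac and skeletal muscle gene control, and it lies at chr7:112679356-112906784. Of its 11 peaks, 8 were inside the gene, and Tead1 was the nearest protein coding gene of all 11. The highest-scoring peak of the 10 genes lay 41.1 kb outside its lower-coordinate end, at chr7:112637143-112639404. Its MACS score, the authors' own value for each peak, was 348, which ranked 184 of 17539. It was 2262 bp wide, which ranked 13 by width. The next protein coding gene, Parva, which encodes the adhesion protein alpha-parvin, was only a little farther from it, at 46.6 kb. Another peak, at chr7:112917220-112918719, lay 11.2 kb outside the higher-coordinate end with a score of 181 and a width of 1500 bp. The last outside peak, with a score of 64.9, was 22.8 kb from the lower-coordinate end.

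The 8 peaks inside Tead1 scored lower than the strongest outside one. Moving from the lower-coordinate end, their scores were 74.3, 73.2, 118, 65.6, 115, 93.4, 75.4 and 198. The last 3 of these formed a group whose centres spanned 5.61 kb, 21.0 to 26.6 kb inside the higher-coordinate end. The score of 198 was carried by a peak only 592 bp wide and recurred, to the second decimal, in 116 peaks of the list. Over all peaks the median score was 99.3, with quartiles of 77.7 and 138. The median of the 11 Tead1 peaks was 93.4.

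The other TEAD genes had 4 peaks in all, and 3 of those lay inside another gene. The peak of Tead2 (chr7:45215792-45233468), which encodes a TEAD factor of the early embryo, was 23.4 kb before the annotated start. It lay within Kash5, a meiotic gene, and scored 139. Tead3 (chr17:28331671-28350805), best known from placenta, had a peak of score 124 inside Ppard, the gene of a fatty acid-sensing nuclear receptor, at 43.7 kb. A second, with a score of 77.4, lay inside the ribosomal protein gene Rpl10a, 2.96 kb beyond the end of Tead3 that is opposite its annotated starts. Distance alone does not assign these 3 peaks to Tead2 or Tead3.

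Tead4 is known in mouse for the formation of the trophectoderm and has also been tied to myoblast differentiation. It lies at chr6:128227143-128300813. Its single peak, chr6:128300397-128301185, straddled the higher-coordinate end of the gene with its centre 0.022 kb inside. The score was 62.7, which ranked 16745 of 17539, so this was one of the weaker peaks of the list. The nearest other peak was 121 kb away. The gene table gives no strand for Tead4, so whether that end is the start of transcription was not determined.

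Yap1 (chr9:7931999-8004638) had its pair of peaks at the start of the gene and no other within 50 kb. The peak chr9:8004178-8004772, which covers the promoter stretch printed above, was centred 0.121 kb after the annotated start and scored 59.6. The peak chr9:8003232-8003983 was centred 0.989 kb after the start and scored 64.2. Both were below the lower quartile of the list, ranking 17032 and 16237. Their facing edges were 194 bp apart, and no peak with a score above the list's median lay in the Yap1 window.

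Wwtr1 (chr3:57455644-57575910), which encodes TAZ, had the opposite layout. It had no peak at its start and a pair of peaks inside the gene, 74.0 and 79.0 kb after an annotated start, with scores of 97.0 and 116. The peak of score 97.0 was 520 bp wide, and its exact score recurred in 659 peaks. Another pair lay outside the far end of the gene, 28.4 and 34.8 kb away, with scores of 171 and 99.9. The peak of score 171 was inside Tm4sf4, the gene of a membrane protein of the L6 family, and the other was 4.53 kb from it.

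Lats1 (chr10:7681200-7716461) had 2 peaks, both inside the gene, at chr10:7687961-7688846 and chr10:7702555-7703297. They were centred 7.19 and 21.7 kb after the annotated start and scored 117 and 127, above the list's median. On chromosome 10, 75.5% of protein coding genes had a peak in the same kind of window.

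Lats2 (chr14:57689662-57746212) lay in a long interval without peaks. The nearest peaks were 772 kb away on one side and 1020 kb on the other, and the flanking centres were 1.85 Mb apart. Of the 410 intervals between neighbouring peaks on chromosome 14, 11 were at least as wide, and this one held 21 protein coding genes. Chromosome 14 had the fewest peaks per Mb of the autosomes, 3.30, which would place 0.516 peaks in a window as long as that of Lats2. A count of 0 there gives an exact 95% Poisson interval of 0 to 23.6 peaks per Mb. On that chromosome 10.7% of protein coding genes were as far from a peak, and 6.06% were over the whole genome. Genes taken as lying in the interval around Lats2 hold no peak by construction. Only those near its ends could have one within 50 kb, and none of the 21 did. A difference between Lats2 and Lats1 in peak density was not detectable at a count of 0.

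The Vgll3 gene (chr16:65815189-65866368), which encodes a TEAD cofactor that has been linked to myogenic differentiation, had the second-highest score of the 10 genes. Its peak at chr16:65820396-65821788 was centred 5.90 kb after the annotated start, scored 266 and ranked 590. Inside the gene, 3 more peaks followed at 13.2, 14.3 and 35.2 kb after the start, with scores of 110, 55.4 and 167. The peaks of score 110 and 167 were 383 and 384 bp wide, the narrowest of the 35, and their exact scores recurred in 607 and 236 peaks. The last peak, with a score of 64.2, lay 24.3 kb beyond the gene and was nearer to the predicted gene Gm52259. Without the peaks of recurring score, Vgll3 had 3 peaks.

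Vgll4 (chr6:114860621-114970007), the gene of the YAP-competing cofactor, had 6 of its 7 peaks inside the gene. Its annotated start is at the higher-coordinate end, and the nearest of its peaks was 63.0 kb after it. Inside the gene, 5 peaks stood 63.0, 64.7, 67.5, 75.02 and 79.98 kb after the start, with scores of 79.6, 206, 106, 122 and 197 in that order. The peak of score 206, chr6:114903883-114905183, ranked 1457 and that of score 197, chr6:114888775-114889667, ranked 1722. A sixth inside peak scored 70.7 at the far end of the gene, 0.687 kb from Atg7, an autophagy gene. The peak outside lay within Atg7, 27.3 kb from Vgll4, and scored 149. None of the 7 had a recurring score.

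**Figure D3:**
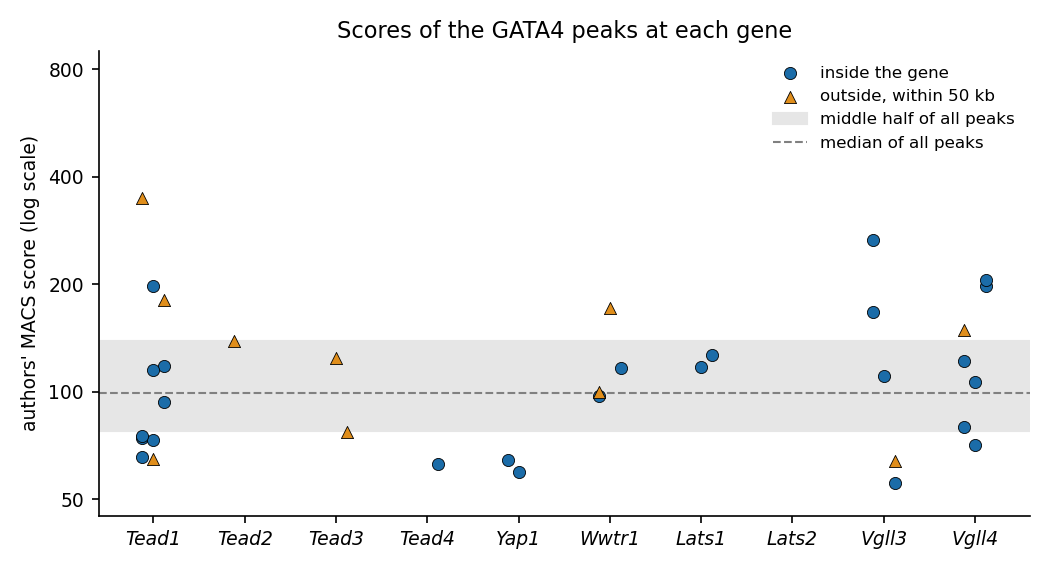
The authors' MACS score of each peak is plotted on a log scale by gene, with circles for peaks inside the gene and triangles for peaks within 50 kb outside it. The grey band spans the quartiles of all 17539 peaks, 77.7 to 138, and the dashed line is their median. The Yap1 and Tead4 peaks lie below the band, both Lats1 peaks lie within it, and the highest points belong to Tead1 and Vgll3.

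Scores of the 35 peaks were spread much like those of the whole list. Their median was 110, with quartiles of 73.8 and 144, against a median of 99.3 and quartiles of 77.7 and 138 for all peaks. Above the upper quartile of the list were 10 of the 35, and below the lower quartile were 12. The 10 peaks outside the genes had a median of 132 and the 25 inside had a median of 106. Of those outside, 7 were nearest to another protein coding gene. The 3 peaks within 1 kb of an end of these genes, those of Tead4, Yap1 and Vgll4, scored 62.7, 59.6 and 70.7, and the other 32 had a median of 116. Neither split was compared with the same split of the whole list, and the second rests on 3 peaks.

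The peaks of recurring score were narrow. A score shared to the second decimal by 100 or more peaks was found for 5 of the 35 peaks, or 14.3%, and for 25.1% of all peaks. These 5, at Tead1, Tead3, Wwtr1 and Vgll3, were 383 to 592 bp wide and were the 5 narrowest of the 35. The next was a Yap1 peak of 595 bp. All peaks with those 5 scores had median widths between 435 and 498 bp, depending on the score, and the whole list had a median of 745 bp. How duplicate reads were treated is not stated in the labels or the file.

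**Figure D4:**
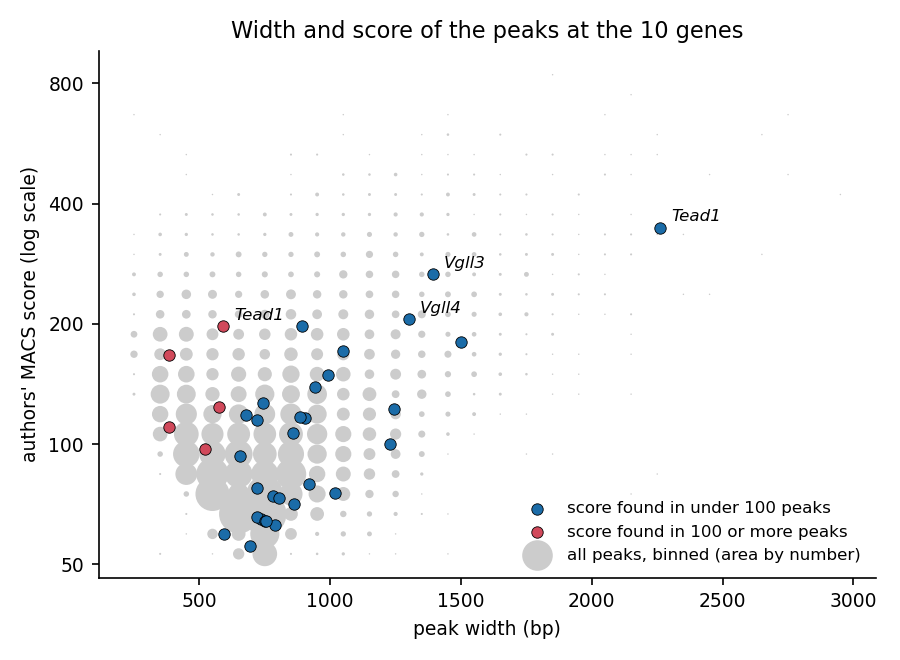
Peak width in bp is plotted against the authors' MACS score on a log scale, with the 35 peaks as coloured points and all 17539 peaks as grey circles whose area gives the number in each bin. The 5 red points, whose exact score recurs in 100 or more peaks, are the narrowest, and the peaks of highest score at Tead1 and Vgll3 are 2262 and 1393 bp wide.

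Several of the peaks stood in groups. Another peak centre lay within 5 kb of 14 of the 35, or 40.0%, and the share was 25.4% over all peaks. These groups were at Tead1 (a pair and a group of 3), Vgll4 (a pair and a group of 3), Yap1 and Vgll3 (a pair each). The group of 3 in Vgll4 spanned 4.54 kb between its outer centres and held the gene's highest score.

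Most other genes of the Hippo pathway listed had a peak, with densities that ranged widely. Of 32 symbols listed, 31 were in the gene table, and 25 of those, or 80.6%, had a peak in the gene or within 50 kb, as did 56.8% of all protein coding genes. These shares were not matched for length, and longer windows hold more peaks. The medians of the 31 genes were 1 peak per gene and 8.12 peaks per Mb, against 1 and 7.08 over protein coding genes. The densest were Vgll2 with 37.7, Amotl2 with 34.4 and Taok2 with 24.9 peaks per Mb. The first 2 of these, from 4 peaks each, were nominally above the 33.6 of Tead1, from 11 peaks. No counting intervals were computed for the other Hippo genes, so this order is not a detected difference. The highest score was 233, inside Mob1b, which encodes an activator of the LATS kinases. Next came a score of 167 inside Fat4, the atypical cadherin, from a peak 422 bp wide whose exact score recurred in 236 peaks. Vgll2, a muscle-expressed relative of Vgll3, had 4 peaks and a highest score of 144 at 3.74 kb, on the peak-dense chromosome 10. Amotl2, whose product binds YAP, also had 4, with a highest score of 140 inside the gene. Taok2, a kinase upstream of the cascade, had a score of 138 inside the gene, from a peak 350 bp wide whose score recurred in 428 peaks. Wwc2, a relative of the upstream regulator KIBRA, had 5 peaks, but its highest-scoring one, at 134, was nearer to Cldn24. No peak was found for Nf2, the gene of the upstream regulator merlin, or for Rassf5, Strn3, Wtip, Amot and Vgll1. Amot and Vgll1 are on chromosome X, where 21.0% of protein coding genes had a peak.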

How the data were processed

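The submitters' processing notes name CASAVA 1.8, Bowtie and genome build GRCm38 (mm10), and the peak caller was MACS in Galaxy, per the file header. Other tool versions, the caller's threshold, its treatment of duplicates and whether IgG served as its control were not stated (not given in the sources used here). As deposited, the authors' file is 1 list of peaks with positions (0-based starts, converted to 1-based) and a MACS score per peak, which is compared here only within that list.

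Genes came from a RefSeq table of GRCm38.p6, without strand or exons. Strand and starts came from RefSeq promoter windows of the same build, found for 8 of the 10 genes. A peak was counted by its centre in the gene span or within 50 kb. Chromosome density used the span from the first to the last annotated gene. Exact Poisson 95% intervals cover counting error only. With 1 library each for GATA4 and IgG no test was made, and the depth is unknown.

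All 10 genes and their peaks are named. Of the other Hippo genes, the 6 with the highest-scoring peak and those without a peak are named. The genes, lists and comparisons were chosen with earlier results of these data known, and the motifs with the promoter sequences in view. The counting was tested on simulated peaks. Python 3.11.15, pandas 2.3.3 and scipy 1.17.1 were used.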

Additional observations from a re-analysis of the deposited data

How the results depend on the processing

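No paired analysis was possible because there was 1 library each for GATA4 and IgG and no test between libraries. Alternatives were flanks of 10 kb, 100 kb or none, peaks above the median score, assignment by overlap or to the nearest gene and, chosen after seeing the data, leaving out narrow peaks, peaks of recurring score or peaks inside another gene. The members with a peak numbered 7 to 9 of 10 under all of them. They were 8 with 10 kb (33.3% of protein coding genes), 9 with 100 kb (69.9%) and 7 above the median score (36.8%). For gene spans alone they were 7 (21.0%), and by overlap 9 (57.0%). Without narrow peaks they were 9 (49.7%), and without peaks of recurring score 9 (49.4%). For assignment to the nearest gene and without peaks inside another gene they were 7 each, with no share computed over protein coding genes. The shares of protein coding genes were not matched for length. With 100 kb flanks the median was 3.5 peaks per gene, against 2 for protein coding genes. Among peaks above the median score, 20 of the 35 remained, with a median score of 133 by construction, and Tead1 kept 5, Vgll4 5 and Vgll3 3. Tead4 and Yap1 had none there, Tead2 had none within 10 kb, and Tead2 and Tead3 had none inside the gene. With gene spans alone Vgll3 had 78.2 peaks per Mb (exact 95% Poisson interval 21.3 to 200), its narrow peaks included. Lats1 had 56.7 per Mb (6.87 to 205) from 2 peaks, and that interval took in the 12.8 per Mb of chromosome 10. In the window with 50 kb flanks, Vgll3 fell from 33.1 to 19.8 per Mb without narrow peaks, and equally without peaks of recurring score. Its interval was then no longer above its chromosome.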
